A study of Mus musculus with 41 samples.

Results

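Expression of 9 genes of the complement system was compared in bone from young and old mice: C1qa, C1qb, C1qc, C2, C4b, Cfb, C3, C3ar1 and C5ar1. They were taken by gene symbol from a table of 43346 genes, and all 9 were found and passed the filter on low counts that left 19292 genes for testing. RNA-seq was performed on tibiae of 41 female INK-ATTAC mice on a C57BL/6 background. The groups were 12 young mice (6 to 12 months by the labels), 13 old mice given vehicle (old + vehicle) and 16 old mice given AP20187, the dimerizer drug, at 10 mg per kg (old + AP). Injections in the old mice were given 2 times per week from 20 months of age for 4 months. None is recorded for the young mice, so that age and the injections cannot be told apart in comparisons with young mice. All 3 groups carried the INK-ATTAC transgene, in which the promoter of p16Ink4a (Cdkn2a) drives a caspase that is switched on by AP20187, so that no group lacked it. The bones were diaphyses, spun to remove marrow, and the comparisons asked how complement expression differed with age and with the drug that eliminates p16Ink4a-expressing cells.

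Complement is a cascade of plasma proteins that tags and attacks targets. C1q, a hexamer of heterotrimers built from the products of C1qa, C1qb and C1qc, recognizes antibody, dying cells and other surfaces and starts the classical pathway, in which C4 and C2 form the enzyme that cleaves C3. Factor B (Cfb) forms the corresponding enzyme of the alternative pathway, all routes meet at C3, and the cleavage fragments C3a and C5a act through their receptors C3ar1 and C5ar1 on myeloid cells. The liver makes most of the circulating components, whereas C1q is made mainly by macrophages and related cells.

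Values are given as CPM, read counts relative to library size with the TMM scaling of edgeR. A gene was called higher or lower where the quasi-likelihood test of edgeR gave an adjusted p (Benjamini-Hochberg, over all genes tested) under 0.05 and the log2 fold change lay past 0.5 in either direction. Libraries held 37028959 to 75942717 counts (median 47774880). The lowest count of any of the 9 genes in any mouse was 194, for C3ar1, and the highest was 65687, for C3, so that counting error (a CV of at most 7.18%) was small beside the spread between mice. Cdkn2a was higher in old + vehicle than in young mice (log2 fold change 2.22, SE 0.43, adjusted p = 0.000332 by edgeR) and differed by -0.67 between old + AP and old + vehicle mice (adjusted p = 0.265). Markers of osteoblasts, neutrophils and skeletal muscle were all abundant, with summed levels of 3012 to 41414, 4931 to 34405 and 5618 to 83698 CPM over the 41 mice, so that marrow and muscle RNA was present beside that of bone. Of 5 hepatocyte genes, Alb, Apoa1, Ttr and Fgb did not pass the count filter, and Alb had at most 22 reads in any mouse. The fifth, Serpina1a, passed, with medians of 0.58, 0.456 and 0.677 CPM and highest values of 5.99, 5.29 and 34.2 CPM in young, old + vehicle and old + AP mice. Its highest levels were in old + AP mice 18 (34.2 CPM) and 19 (33.6 CPM), and it was not called between old + AP and old + vehicle mice (log2 fold change 2.6, SE 0.83, unadjusted p = 0.00306, adjusted p = 0.0761 by edgeR). Its part in the complement levels was not tested. No batch is given in the labels, and the numbers of the mice run separately in the young and old groups, so that a batch which went with age and age itself cannot be told apart. In bulk tissue, fewer cells of a type and less RNA per cell cannot be told apart either.

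Per kilobase of gene length, the order of the 9 genes in young mice ran from C1qb (92.9 ± 16.1 CPM per kb, SD, n = 12) through C1qa (78.5 ± 13.4), C3 (58.4 ± 11.6), C1qc (39.2 ± 7.19), C4b (26 ± 5.54), C5ar1 (11.5 ± 2.21), Cfb (9.24 ± 1.21) and C2 (4.26 ± 0.98) to C3ar1 (2.23 ± 0.37). The mean ± SD ranges of C1qb and C1qa overlapped, as did those of C1qa and C3 and of C5ar1 and Cfb. The order was the same in old + vehicle mice. In old + AP mice, C3 (97.3 ± 34.9, n = 16) had a higher mean than C1qa (89.4 ± 52.6), well within their SDs. Within this tissue the recognition molecule and C3 were thus the more abundant transcripts per kilobase and the C3a receptor the least abundant.

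**Figure D1:**
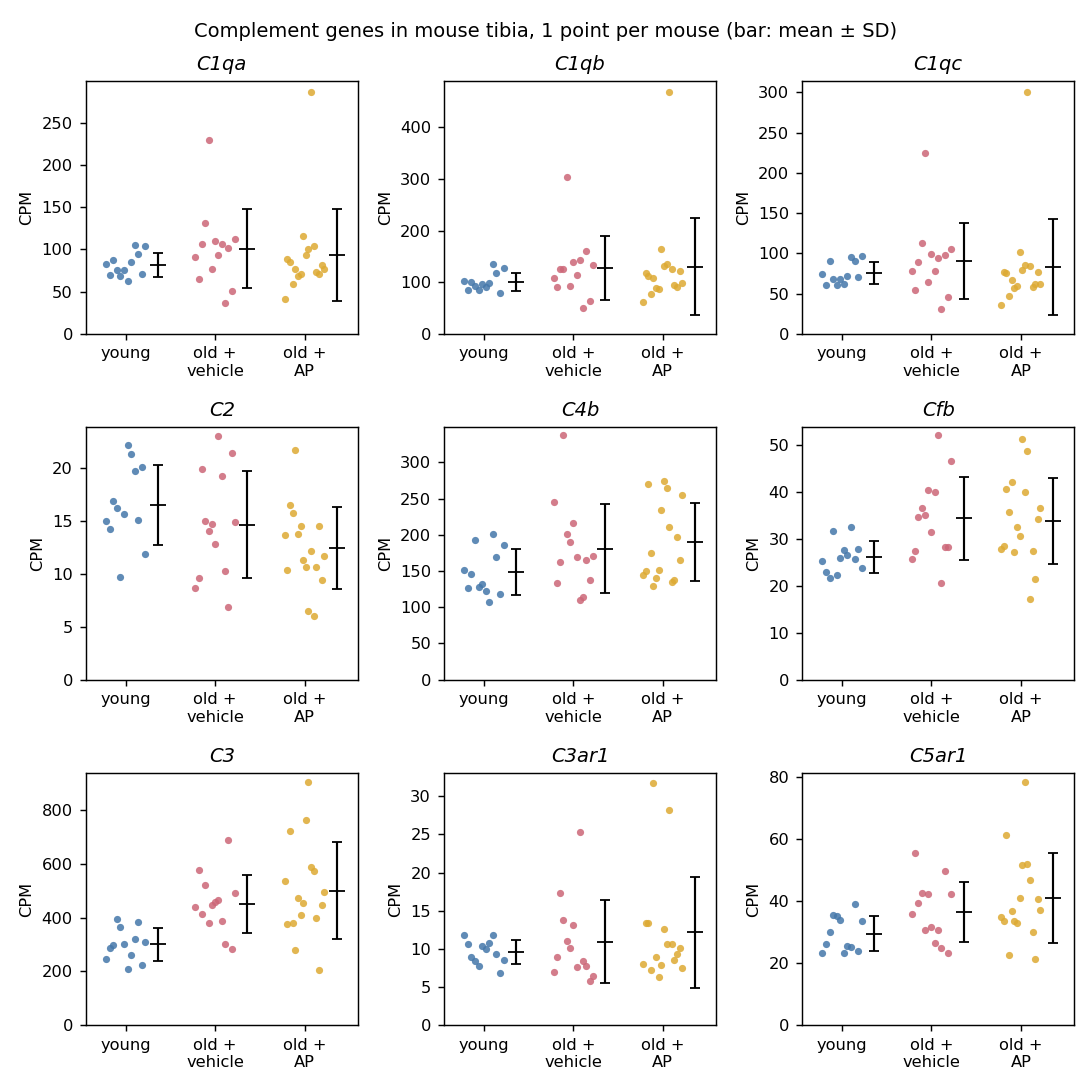
CPM of the 9 complement genes in each mouse (1 point per mouse; 12 young, 13 old + vehicle, 16 old + AP), with the mean and SD of each group as a bar, on axes that start at 0. C3 lies higher in most old mice than in young mice, 1 old + vehicle mouse and 1 old + AP mouse stand far above the rest for the 3 C1q genes, and every pair of groups overlaps for every gene.

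The 3 C1q genes lie side by side on the minus strand of chromosome 4 (GRCm38): C1qb at chr4:136880129-136886187 (ENSMUSG00000036905), C1qc at chr4:136889804-136893065 (ENSMUSG00000036896) and C1qa at chr4:136895917-136898803 (ENSMUSG00000036887). Upstream sequence from RefSeq (GRCm38.p6) was matched for 5 of the 9 genes, C1qb, C1qc, C3, C3ar1 and C5ar1. Because the C1q genes moved together, the stretches before C1qb (chr4:136886201-136886450) and C1qc (chr4:136893066-136893164, all that lies outside the gene in this table) are shown, on the minus strand and 5′ to 3′, with matches on either strand to the core GAGGAA of PU.1, a transcription factor of macrophages, in capitals.
C1qb: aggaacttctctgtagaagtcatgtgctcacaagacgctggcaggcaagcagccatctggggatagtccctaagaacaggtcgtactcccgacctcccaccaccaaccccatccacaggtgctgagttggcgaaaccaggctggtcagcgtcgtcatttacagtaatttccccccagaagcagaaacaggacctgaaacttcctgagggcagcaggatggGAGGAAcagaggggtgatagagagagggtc
C1qc: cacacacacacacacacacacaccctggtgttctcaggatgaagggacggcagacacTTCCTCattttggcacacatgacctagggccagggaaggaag
Each holds 1 match, which begins 30 bases before the end of the C1qb stretch and 42 bases before the end of the C1qc stretch. Of 27025 RefSeq mouse promoters of 250 bases, 23.1% hold this core, so that a match is a description only. The C1qc stretch, at 99 bases, is shorter than those windows, and no share was taken for its length.

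C1qa was measured at 62.0 to 105 CPM in young mice (median 79.4), at 36.4 to 229 CPM in old + vehicle mice (median 102) and at 40.7 to 287 CPM in old + AP mice (median 78.6). Both old groups thus reached below and above the whole young range. The spread was the feature that set the groups apart by eye: the CV of C1qa, C1qb and C1qc was 17.1%, 17.4% and 18.3% in young mice, 46.5%, 48.6% and 52.4% in old + vehicle mice, and 58.8%, 71.9% and 72.2% in old + AP mice. The difference in spread was not tested.

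Much of that spread came from a pair of mice. Old + vehicle mouse 8 had 229, 304 and 225 CPM of C1qa, C1qb and C1qc, where the next mouse of its group had 131, 159.8 and 112 CPM. Old + AP mouse 24 had 287, 468 and 300.2 CPM, where the next mouse had 116, 163.5 and 102 CPM. Without these 2 mice the CVs of the 3 genes fell to 30.9%, 29.2% and 32.4% in old + vehicle mice and to 23.4%, 24.3% and 24.3% in old + AP mice. The macrophage marker score (the mean z-score of log2 CPM over 12 markers) was 0.30 in mouse 8 and 1.08 in mouse 24, within the range of the other mice.

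No C1q gene was called in any comparison. Against young mice, the log2 fold changes in old + vehicle mice were 0.30 for C1qa (SE 0.22, adjusted p = 0.359 by edgeR), 0.33 for C1qb (SE 0.24, adjusted p = 0.346) and 0.25 for C1qc (SE 0.24, adjusted p = 0.511), with 9 of 13 mice above the young median for each gene. Without mouse 8 these values were 0.14, 0.15 and 0.06. In old + AP mice they were 0.19, 0.37 and 0.13 (adjusted p = 0.570, 0.264 and 0.729), and without mouse 24 they were -0.03, 0.09 and -0.14, so that the sign for C1qa and C1qc rested on 1 mouse.

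The 3 genes varied together from mouse to mouse. Within groups, Pearson's r of log2 CPM between C1q genes was 0.871 to 0.937 in young mice, 0.966 to 0.995 in old + vehicle mice and 0.987 to 0.996 in old + AP mice (Spearman's rho 0.863 to 0.979 over the 3 groups). All 9 relations passed in a family of 24 relations between members (permutation test, adjusted p at most 0.00048 for r and 0.00131 for rho), and r stayed at 0.765 or above without the 2 mice farthest from the median. Over the 41 mice, with group means removed, the genes most like each C1q gene among 15541 with at least 1 CPM on average were the other two, followed by Tmem51 for C1qa (r = 0.913) and C1qc (r = 0.923) and by P2rx4, a purinergic channel of macrophages and microglia, for C1qb (r = 0.907). These likenesses are descriptions across genes that share libraries.

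With the macrophage score, the C1q genes had r = 0.754 (C1qa), 0.709 (C1qb) and 0.727 (C1qc) over the 41 mice with group means removed (rho 0.809, 0.764 and 0.784). These are 9 genes by 3 marker scores, a family of 27 relations, and the permutation p of 1e-05, the smallest that the resamples can give, gave an adjusted p of 5.4e-05 for each r and 4.5e-05 for each rho. Leaving out the 2 mice farthest from the median score gave r of 0.737, 0.681 and 0.706. The macrophage score was not related to C1q alone: C5ar1 had r = 0.658 with it (rho 0.636), C4b 0.64 (rho 0.619), C3 0.508 (rho 0.514) and C3ar1 0.461 (rho 0.51), all passing in the same family (permutation test, adjusted p from 7.71e-05 to 0.0106 for r), and without the 2 farthest mice r was 0.575, 0.686, 0.457 and 0.382. For Cfb r was 0.337 (rho 0.389, adjusted p = 0.0834 for r and 0.0239 for rho), and for C2 it was -0.21 (rho -0.18, adjusted p = 0.278 and 0.317). The macrophage markers themselves were split: of 12 markers, none was called higher and 1 lower in old + vehicle against young mice, 1 was called higher and 1 lower in old + AP against young mice, and summed levels overlapped (1983 to 3678 CPM in young, 1975 to 4078 in old + vehicle and 2046 to 5777 in old + AP mice). In old + vehicle against young mice Adgre1 differed by -0.07, Csf1r by -0.06 and Cd68 by 0.12 on the log2 scale, the first 3 of the list. Of the others, named after their values were seen, Cd163 was lower (-0.85, adjusted p = 0.00143 by edgeR), Mertk (-0.40, adjusted p = 0.01) and Fcgr1 (0.46, adjusted p = 0.0453) passed on adjusted p and fell short of the fold threshold, and Mrc1 (-0.30) and Marco (1.62) had adjusted p of 0.065 and 0.243.

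Although their levels followed each other, the proportions of the 3 transcripts were not the same in old + AP as in young mice. The ratios were chosen for testing after their values had been seen, so that their p-values are descriptions of these data. The ratio of C1qc to C1qb counts was 0.684 to 0.894 in young mice (median 0.728), 0.601 to 0.893 in old + vehicle mice (median 0.706) and 0.597 to 0.680 in old + AP mice (median 0.635). All 16 old + AP mice lay below the lowest young mouse, and all 16 lay below the median of the old + vehicle mice, whereas the old + vehicle range overlapped both. The gap between the highest old + AP mouse (0.680) and the lowest young mouse (0.684) was narrow. Other gene pairs were not searched for such a separation. The mean log2 ratio was lower in old + AP than in young mice by -0.23 (SE 0.04, permutation test, p = 2e-05, the smallest the resamples can give; adjusted p = 0.00018 over 9 ratio tests). Between old + AP and old + vehicle mice the difference was -0.13 (SE 0.05, permutation p = 0.00446, adjusted p = 0.0134), and between old + vehicle and young mice it was -0.10 (SE 0.06, adjusted p = 0.116).

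The other ratios moved less. C1qb per C1qa was higher in old + AP than in young mice by 0.14 on the log2 scale (SE 0.04, permutation test, adjusted p = 0.00648; 14 of 16 mice above the young median), and C1qc per C1qa was lower by -0.09 (SE 0.04, adjusted p = 0.0384; 14 of 16 mice at or below the young median). Without young mouse 32 the unadjusted p of the latter was 0.0351, where it was 0.0171 with all mice and before adjustment over the 9 tests. The remaining 4 ratio tests, of old + vehicle against either group, had adjusted p from 0.0785 to 0.592. The smallest count of a C1q gene in any mouse was 1469, which gives a counting CV of 2.61%. These ratios were chosen after their values had been seen, and mapping or counting that differs along the 3 adjacent genes was not tested. Leaving out each mouse in turn moved the C1qc to C1qb difference between -0.24 and -0.21 (old + AP against young) and between -0.15 and -0.10 (old + AP against old + vehicle).

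**Figure D2:**
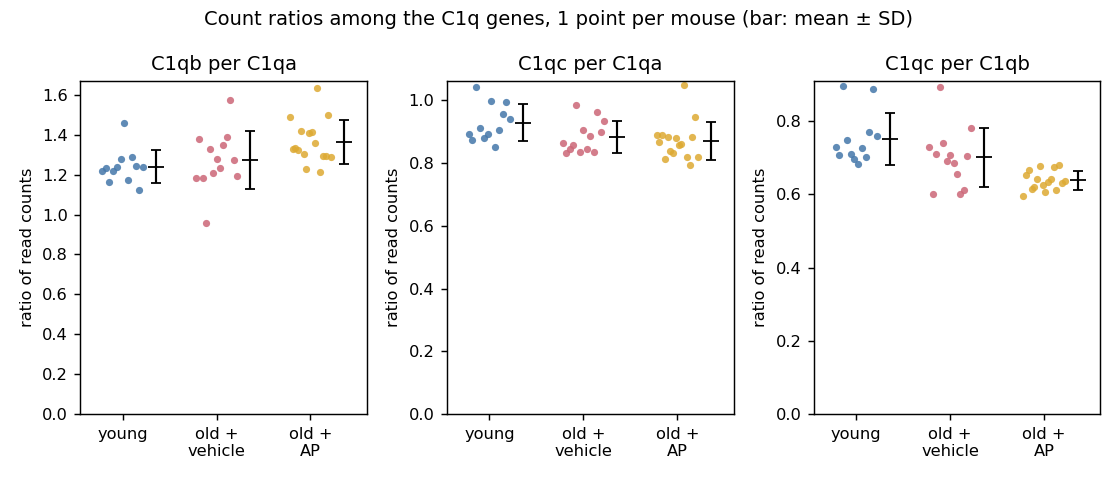
Ratios of read counts among C1qa, C1qb and C1qc in each mouse (1 point per mouse; 12 young, 13 old + vehicle, 16 old + AP), with the mean and SD of each group. For C1qc per C1qb, the 16 old + AP mice sit between 0.597 and 0.680, below the lowest young mouse at 0.684, and the old + vehicle mice span both ranges.

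C2, C4b and Cfb lie in the class III region of the major histocompatibility complex on the minus strand of chromosome 17 (GRCm38): C4b at chr17:34728380-34743882 (ENSMUSG00000073418), Cfb at chr17:34856374-34862518 (ENSMUSG00000090231) and C2 at chr17:34862604-34898265 (ENSMUSG00000024371), whose 3′ end lies directly beside Cfb. The table also lists Gm20547, a transcript model that spans C2 and Cfb. Its count was 0.80 to 0.901 of the summed counts of C2 and Cfb (median 0.839), so that the 3 values share reads or positions and cannot be taken as separate measurements. Gm20547 itself was not called in any comparison (log2 fold change 0.23 in old + vehicle against young mice, adjusted p = 0.210 by edgeR). C4b has a near-identical copy, C4a, whose count was 2.49% to 5.27% of that of C4b.

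C2, the serine protease of the classical pathway enzyme, was the 1 member with a negative log2 fold change in both old groups. Its level was 9.72 to 22.2 CPM in young mice (median 15.9), 6.86 to 23 in old + vehicle mice (median 14.7) and 6.03 to 21.7 in old + AP mice (median 11.9). The 3 ranges overlapped throughout, although 14 of 16 old + AP mice lay below the young median. C2 differed by -0.17 (SE 0.18, adjusted p = 0.541 by edgeR) in old + vehicle mice and by -0.41 (SE 0.17, adjusted p = 0.0836) in old + AP mice, and neither value was called.

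Factor B, Cfb, was at 21.6 to 32.5 CPM in young mice (median 25.8), at 20.5 to 52.0 in old + vehicle mice (median 34.5) and at 17.1 to 51.1 in old + AP mice (median 33.2). In old + vehicle mice, 11 of 13 lay above the young median, and in old + AP mice 14 of 16 did. The log2 fold changes were 0.39 (SE 0.13, adjusted p = 0.0335 by edgeR) and 0.37 (SE 0.13, adjusted p = 0.0399), past the p threshold and short of the fold threshold, so that Cfb was not called. The adjusted p was 0.0765 without old + vehicle mouse 16 and 0.0934 without old + AP mouse 18, which were the highest mice of their groups.

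C2 and Cfb, next to each other on the chromosome, had opposite signs in both comparisons with young mice. Within groups they had r = 0.591 (rho 0.650) in young, 0.602 (rho 0.621) in old + vehicle and 0.30 (rho 0.229) in old + AP mice. None of the 3 values of r passed in the family of 24 (permutation test, adjusted p = 0.0721, 0.072 and 0.328), whereas rho did in young and old + vehicle mice (adjusted p = 0.0497 in both). The part of shared reads in this relation was not tested. Apart from Gm20547 (r = 0.953), the genes most like Cfb over the 41 mice were Rnh1 (r = 0.643) and Rasd1 (r = 0.637). Those most like C2 were Adamtsl1 (r = 0.80), Rarres2, which encodes chemerin (r = 0.796), and Gabra3 (r = 0.782).

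C4b, the mouse gene for C4, was at 107 to 201 CPM in young mice (median 139), at 109.6 to 337 in old + vehicle mice (median 169) and at 129.8 to 274 in old + AP mice (median 170.4). Most old mice lay in the upper part of the young range or above it, 9 of 13 and 13 of 16 being above the young median. C4b differed by 0.29 (SE 0.16, adjusted p = 0.200 by edgeR) and by 0.36 (SE 0.15, adjusted p = 0.0899), and was not called. The genes most like it were C4a (r = 0.848), Sfn (r = 0.741) and Cabin1 (r = 0.737). C4a differed by 0.19 in both comparisons with young mice and was not called (adjusted p = 0.347 and 0.314).

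C3 (ENSMUSG00000024164), the protein on which all activation routes converge and a gene of the senescence gene set SenMayo, lies at chr17:57203970-57228136 on the minus strand. It was the 1 member called. The 250 bases before its start (chr17:57228137-57228386, minus strand, 5′ to 3′, RefSeq, GRCm38.p6) are shown because C3 was called against young mice in both old groups. Capitals mark the match to TTGCNNAA, a core of the C/EBP factors, which act in myeloid and acute phase expression.
C3: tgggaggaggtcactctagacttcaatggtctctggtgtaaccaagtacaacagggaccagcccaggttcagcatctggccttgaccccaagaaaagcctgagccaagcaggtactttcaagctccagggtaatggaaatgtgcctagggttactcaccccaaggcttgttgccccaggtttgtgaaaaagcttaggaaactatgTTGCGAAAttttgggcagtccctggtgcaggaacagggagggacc
The match begins 45 bases before the start. It is found in 9.55% of the 27025 promoters. No match on either strand was found in this window to the other cores searched, which were those of PU.1 (23.1% of promoters), NF-kB (1.4%), STAT (TTCNNNGAA, 7.18%), IRF (3.04%) and the TATA box (TATAAA, 13%). The stretch before C3ar1 (246 bases, not shown) held a match to the NF-kB core and a match to the TATA box. That before C5ar1 (48 bases, not shown) held no match to any core.

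In young mice C3 was at 209 to 396 CPM (median 299.8), in old + vehicle mice at 284 to 689 CPM (median 447) and in old + AP mice at 204 to 903 CPM (median 465). All but 1 of 13 old + vehicle mice and all but 2 of 16 old + AP mice were above the young median, while the ranges overlapped. The means ± SD were 300.3 ± 59.8 (n = 12), 450.0 ± 108 (n = 13) and 500.3 ± 179.6 CPM (n = 16). C3 was 1.5-fold higher in old + vehicle than in young mice (log2 fold change 0.58, SE 0.16, 95% interval 0.25 to 0.91, adjusted p = 0.00947 by edgeR) and 1.67-fold higher in old + AP than in young mice (0.74, SE 0.16, 0.42 to 1.05, adjusted p = 0.00112). The call held in both comparisons whichever mouse was left out (0.52 to 0.63 and 0.64 to 0.79).

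C3 was thus 1 of 9 members called higher in old + vehicle against young mice, where 4.3% of all 19292 tested genes were called higher, 4.76% lower and 9.06% in either direction. Likewise 1 of 9 was called higher in old + AP against young mice, beside 3.73% of all genes higher, 4.85% lower and 8.58% in either direction. By adjusted p alone, with no fold threshold, 2 of 9 members (C3 and Cfb) passed in the first comparison, beside 19.4% of all genes, and 3 of 9 (C3, Cfb and C5ar1) in the second, beside 17.8%. DESeq2 called 1 of 9 in each, beside 8.76% and 8.68% of the genes it tested. In no comparison did the groups fail to overlap for any member; over all genes this was so for 0.503% in the first comparison, 0.213% in the second and 0% between the old groups. Over the 9 genes the log2 fold changes had a median of 0.30 in the first comparison and 0.36 in the second, beside 0.01 over all genes tested in the first, and 8 of 9 values were positive in each. With so few members these shares and medians are descriptions, and the comparisons share the young mice.

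**Figure D3:**
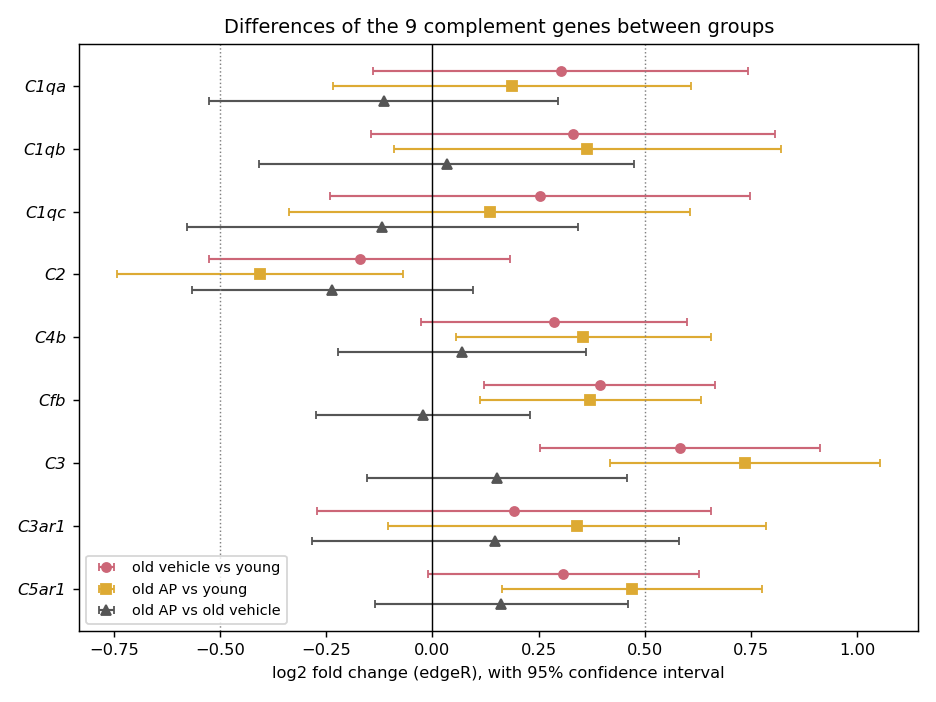
Log2 fold changes of the 9 genes in the 3 comparisons, as estimated by edgeR, with 95% confidence intervals; the dotted lines mark the fold threshold of 0.5 in each direction. C3 lies past 0.5 against young mice in both old groups, C2 is the only gene below 0 in both, and the intervals of all 9 genes include 0 for old + AP against old + vehicle mice.

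The level of C3 moved with neutrophil markers. The neutrophil list held S100a8, S100a9, Ltf and 7 more genes, none of them at 0 in all mice. Its summed level was 8117 to 19504 CPM in young mice (median 10979.8), 4931 to 25761 in old + vehicle mice (median 15245) and 8970.4 to 34405 in old + AP mice (median 15879.7). All 10 markers had positive log2 fold changes in old + vehicle against young mice (median 0.33, 0 called), and in old + AP against young mice 3 of 10 were called higher (median 0.52). Over the 41 mice with group means removed, C3 had r = 0.826 with the neutrophil score (rho 0.873, permutation p = 1e-05, the smallest the resamples can give, adjusted p = 5.4e-05). Without the 2 mice farthest from the median score r was 0.885.

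With the neutrophil score as a covariate, an alternative chosen after the data had been seen, C3 differed by 0.43 (SE 0.10, adjusted p = 0.000703 by edgeR) in old + vehicle and by 0.41 (SE 0.10, adjusted p = 0.0035) in old + AP against young mice. Both values fell short of the fold threshold, so that C3 was then not called and the count of members called was 0 in each comparison, while the adjusted p stayed under 0.05. The share of all genes called in this fit was not counted. With the macrophage score as the covariate C3 differed by 0.66 and 0.74, and with the skeletal muscle score by 0.73 and 0.68, called in each case. The part of cell composition in the C3 difference was not tested beyond these fits. Genes most like C3 over the 41 mice were Serpinb1a, an inhibitor of neutrophil proteases (r = 0.917), Cldn15 (r = 0.906) and Pgd, an enzyme of the pentose phosphate pathway (r = 0.90).

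Within groups C3 did not follow the other enzyme-forming genes closely. It had r = -0.00, 0.17 and 0.40 with Cfb in young, old + vehicle and old + AP mice (rho -0.02, 0.08 and 0.39) and r = 0.601, 0.365 and 0.519 with C4b (rho 0.706, 0.291 and 0.532). Of these 6 relations, rho of C3 with C4b in young mice had an adjusted p of 0.0292 (permutation test, 24 relations), and the rest missed 0.05. The neutrophil score had r = -0.03 with Cfb (rho 0.01, permutation test, adjusted p = 0.872), and Cfb kept its values with that score as a covariate (0.40 and 0.38, adjusted p = 0.0213 and 0.0446 by edgeR). C2 had r = -0.58 with the same score (rho -0.50, permutation test, adjusted p = 0.000417 for r), the opposite sign to C3, and differed by -0.05 and -0.20 from young mice with it as a covariate (adjusted p = 0.805 and 0.375).

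C5ar1, the C5a receptor of neutrophils and macrophages (ENSMUSG00000049130, chr7:16246743-16259540, minus strand, GRCm38), was at 23.2 to 39.1 CPM in young mice (median 28.1), at 23.5 to 55.5 in old + vehicle mice (median 36) and at 21.4 to 78.6 in old + AP mice (median 36.9). Both old groups reached above the top of the young range, and the lower ends were alike. C5ar1 differed from young mice by 0.31 (SE 0.16, adjusted p = 0.172 by edgeR) in old + vehicle mice and by 0.47 (SE 0.15, adjusted p = 0.0270) in old + AP mice, short of the fold threshold. Leaving out old + AP mouse 9 or mouse 27 brought the latter to 0.51 and 0.52, past the threshold, and leaving out mouse 19 brought it to 0.37 (adjusted p = 0.0675).

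Like C3, C5ar1 followed the neutrophil score (r = 0.844, rho 0.903, permutation p = 1e-05, the smallest the resamples can give, adjusted p = 5.4e-05; r = 0.90 without the 2 farthest mice). With that score as a covariate its differences were 0.14 and 0.15 (adjusted p = 0.215 and 0.24 by edgeR). Its nearest genes were Pgd (r = 0.938), Alox5ap, the leukotriene synthesis partner of 5-lipoxygenase (r = 0.929), and Serpinb1a (r = 0.920), of which Pgd and Serpinb1a were also among the nearest of C3. Old + AP mouse 19 had the highest C3 (903 CPM), the highest C5ar1 (78.6 CPM) and the highest neutrophil score (2.25) of all mice. C3, C4b and C5ar1 also had negative relations with the skeletal muscle score (r = -0.61, -0.65 and -0.67, rho -0.66, -0.64 and -0.66, permutation test, adjusted p = 0.000162, 0.00012 and 7.71e-05 for r; without the 2 farthest mice r = -0.53, -0.56 and -0.59).

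**Figure D4:**
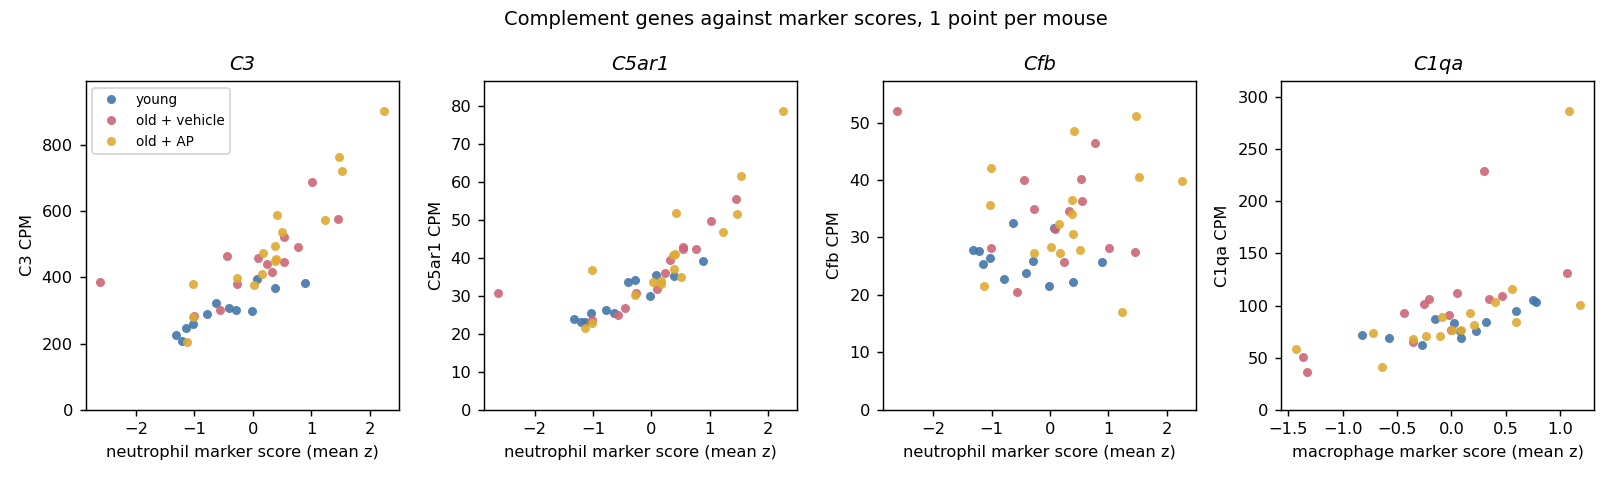
CPM of C3, C5ar1 and Cfb against the neutrophil marker score and of C1qa against the macrophage marker score (mean z-score of log2 CPM over the list; 1 point per mouse, coloured by group). C3 and C5ar1 climb with the neutrophil score (r = 0.826 and 0.844 with group means removed), Cfb does not (r = -0.03), and 1 old + vehicle mouse with a score of -2.62 (mouse 16) lies far to the left.

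C3ar1, the C3a receptor (ENSMUSG00000040552, chr6:122847138-122856161, minus strand, GRCm38), was at 6.83 to 11.8 CPM in young mice (median 9.63), at 5.86 to 25.3 in old + vehicle mice (median 8.93) and at 6.31 to 31.7 in old + AP mice (median 9.79). The medians were alike, and the wider spread of the old groups came from a few mice: mouse 16 with 25.3 CPM and mouse 6 with 17.3 CPM in the old + vehicle group, and mouse 10 with 31.7 CPM and mouse 24 with 28.2 CPM in the old + AP group. Its log2 fold changes against young mice were 0.19 (SE 0.23, adjusted p = 0.608 by edgeR) and 0.34 (SE 0.22, adjusted p = 0.287). Unlike C5ar1, it had no relation to the neutrophil score that passed (r = -0.20, rho 0.04, permutation test, adjusted p = 0.335 and 0.846). Its nearest genes were the chemokine genes Ccl7 (r = 0.807) and Ccl2 (r = 0.782) and 5430435G22Rik (r = 0.801). Mouse 16 was also the old + vehicle mouse with the highest Cfb (52.0 CPM), the lowest C4b (109.6 CPM) and the lowest neutrophil score.

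C1qa and the receptors were related in part. In old + AP mice, rho of C1qa with C5ar1 was 0.762 (permutation test, adjusted p = 0.00216 over 24 relations; r = 0.50, adjusted p = 0.0859, and r = 0.694 without the 2 farthest mice), while in young and old + vehicle mice r was 0.238 and 0.249. With C3ar1, C1qa had r = 0.274, 0.381 and 0.568 in the 3 groups (rho 0.301, 0.451 and 0.515), none past 0.05 after adjustment, and the last fell to 0.174 without mice 24 and 3. Differences between groups in these relations were not tested.

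Between old + AP and old + vehicle mice, none of the 9 genes was called, beside 0.0726% of all genes (14 of 19292). None had an unadjusted p under 0.05 in edgeR, where 23.9% of all genes did, by adjusted p alone 0.171% did and no member, and DESeq2 called no member, beside 1.21% of its genes. The log2 fold changes ran from -0.24 for C2 (95% interval -0.57 to 0.10) to 0.16 for C5ar1 (-0.13 to 0.46). For C3 the interval was -0.15 to 0.46 around 0.15, and for Cfb -0.27 to 0.23 around -0.02. These intervals leave room for differences of either sign for every member, and most reach past 0.3 in size in at least 1 direction. For the C1q genes, 13, 11 and 14 of 16 old + AP mice lay below the old + vehicle median of C1qa, C1qb and C1qc, with log2 fold changes of -0.11, 0.03 and -0.12 in which mice 8 and 24 weighed. Without that pair of mice C1qb differed by -0.06.

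Beyond the 9 genes, 41 other complement genes were listed by role, of which 34 passed the filter on low counts. Mbl2, Colec10, C8a, C8b, C9, Cfi and C4bp did not. In old + vehicle against young mice 1 was called higher and 3 lower, in old + AP against young mice 3 higher and 6 lower, and in old + AP against old + vehicle mice none (edgeR; none in DESeq2 either). Over all genes 9.06% and 8.58% were called in the comparisons with young mice, so that 4 and 9 of 34 stand beside those shares. The median log2 fold changes of the 34 genes were -0.06 and -0.12 against young mice, beside 0.01 and 0.02 over all genes and 0.30 and 0.36 over the 9 members.

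Among the molecules that start the classical and lectin pathways, 1 of 11 tested was called lower in old + vehicle mice, and 3 were called lower and 1 higher in old + AP mice. Mbl1, a mannose-binding lectin, was at 0.267 to 0.814 CPM in young, 0.0235 to 0.376 in old + vehicle and 0.0904 to 0.413 in old + AP mice. It was lower by -1.35 (SE 0.29, adjusted p = 0.000768 by edgeR) and -0.99 (SE 0.26, adjusted p = 0.00738), from 12 to 51 reads per young mouse. The collectin gene Colec11 (-0.61, adjusted p = 0.0355) and C1rb, a C1r protease gene (-0.52, adjusted p = 0.00482), were lower in old + AP mice and were not called in old + vehicle mice (-0.27 and -0.32). Their calls were lost in 10 and 6 of 28 fits that left out 1 mouse. Fcnb, ficolin B of neutrophil precursors, was higher in old + AP mice (0.67, SE 0.20, adjusted p = 0.0162) in every such fit, and it was not called in old + vehicle mice (0.45, adjusted p = 0.126).

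Of 7 receptors, Cr2, the C3d receptor of B cells and follicular dendritic cells, was lower in both old groups: 4.07 to 13 CPM in young, 0.306 to 4.86 in old + vehicle and 0.213 to 5.35 in old + AP mice (-1.63, SE 0.36, adjusted p = 0.00115, and -1.56, SE 0.33, adjusted p = 0.00114, by edgeR). Only the top of the old groups met the bottom of the young range. B cell markers (Cd79a, Cd79b and 3 more) were called lower for 4 of 5 in old + vehicle and for 0 of 5 in old + AP against young mice, with medians of -0.98 and -0.53 and summed levels of 114 to 413, 43.5 to 249.7 and 64.8 to 297 CPM in young, old + vehicle and old + AP mice. Their part in the level of Cr2 was not tested. Itgax, a subunit of complement receptor 4, was called higher in old + AP mice (0.95, adjusted p = 0.0452), but fell to 0.43 (adjusted p = 0.223) without mouse 24, which had 195 CPM where the group median was 20.8.

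Of the 4 terminal genes tested, C7, a component of the membrane attack complex, was higher in old + vehicle mice (1.89, SE 0.48, adjusted p = 0.0045 by edgeR) and in old + AP mice (1.29, SE 0.46, adjusted p = 0.0465). Its level was low, with medians of 0.192, 0.603 and 0.415 CPM in young, old + vehicle and old + AP mice and 3 to 39 reads per young mouse. The second call was lost in 18 of 28 fits that left out 1 mouse, the first in none of 25. C6, its neighbour in the complex, was lower in old + AP mice (-0.62, SE 0.23, adjusted p = 0.0496), a call lost in 21 of 28 fits. Neither Cfd nor Cfp, the protease and the stabilizer of the alternative pathway, was called (0.29 and 0.04 in old + vehicle mice, adjusted p = 0.611 and 0.861).

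**Figure D5:**
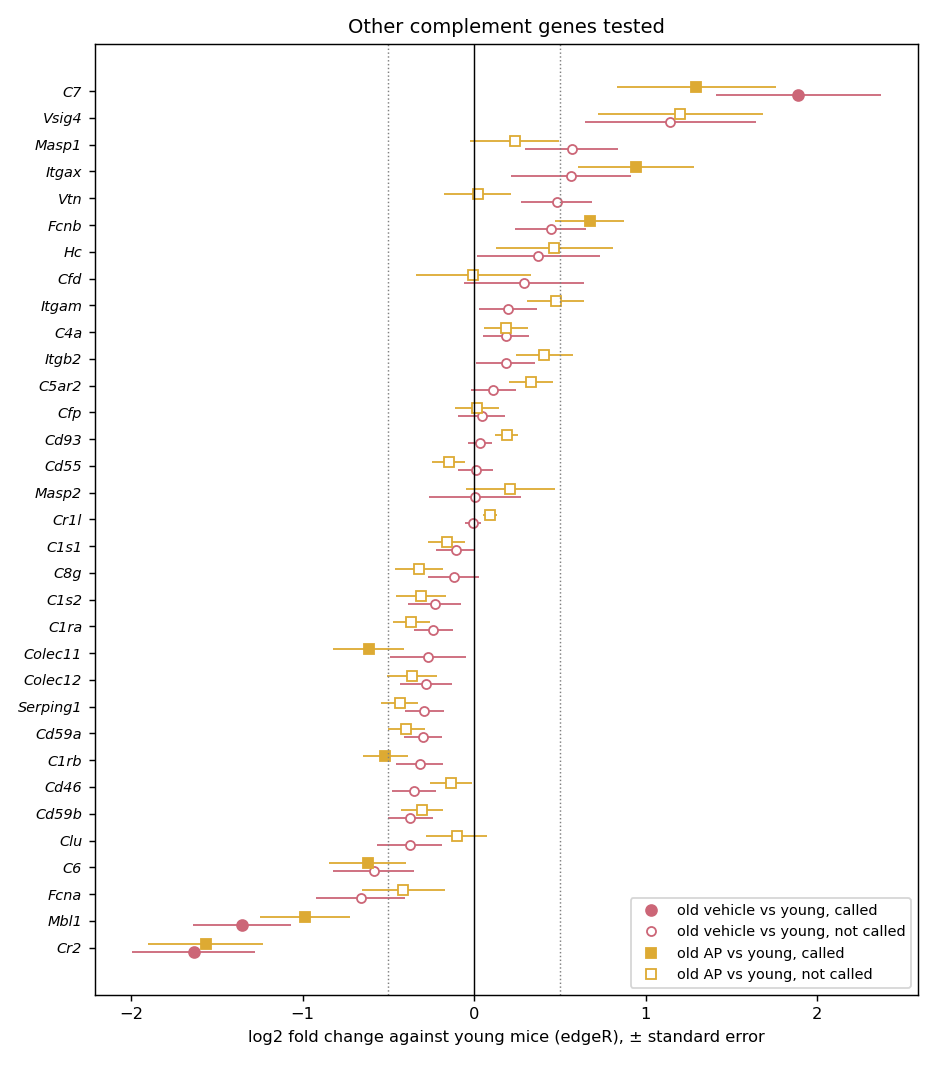
Log2 fold changes against young mice of other complement genes tested, for old + vehicle (circles) and old + AP mice (squares), as estimated by edgeR, with standard errors; filled symbols were called and dotted lines mark 0.5 in each direction. C7 is called higher and Mbl1 and Cr2 are called lower in both old groups, and the remaining 5 filled symbols belong to old + AP mice.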

How the data were processed

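RNA from tibia diaphyses of 41 mice was sequenced on a HiSeq2000. The authors deposited raw read counts for each gene and mouse, not normalized, and their gene length was used for CPM per kb. The submitters' processing notes name TopHat2 2.0.6, HTSeq and GRCm38. Strand and overlap settings and the annotation release are not given in the sources used here. The labels call the molecule genomic DNA, whereas the methods describe RNA. Groups came from the labels, which differ from the methods on ages (the old mice would be 24 months at sacrifice). Replicates were separate mice, and any pair within a group differed by at least 36.4 times the counting variance.

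Counts were analysed in R 4.3.3 with edgeR 4.0.16 (TMM, filterByExpr with a minimum count of 10, quasi-likelihood test in 1 model of 3 groups, Benjamini-Hochberg adjustment over 19292 genes). DESeq2 1.42.0 was an alternative. All 153 listed symbols were found, 151 by symbol and 2 by identifier. Log2 CPM for scores and correlations used a prior count of 2. Permutation tests used 100000 resamples and were two-sided. Scripts were tested on simulated data. Alternatives were other size factors, no filter, no fold threshold, models of 2 groups, muscle, macrophage and neutrophil scores as covariates, and each mouse left out in turn. Named were all members, every other complement gene called, overlapping or duplicate genes, the first 3 genes of a marker list described, the 3 genes most like each member, and Cdkn2a; some of these are counted in their lists and not reported here by name. The members and lists were chosen with earlier results of these data known.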

Additional observations from a re-analysis of the deposited data

How the results depend on the processing

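The C3 calls held with DESeq2, its size factors, no filter on low counts, models of 2 groups, the muscle and macrophage scores and each mouse left out. With no fold threshold the members called numbered 2 (old + vehicle against young) and 3 (old + AP against young), since Cfb, and in the latter C5ar1, passed on adjusted p alone. With the neutrophil score as a covariate they numbered 0 and 0, and the other complement genes called numbered 7 and 5 in place of 4 and 9. Those were 14 for old + AP against young mice with no fold threshold, beside 17.8% of all genes, and 5 without mice 8 and 24. The share of all genes called was not counted with the neutrophil score or without mice 8 and 24, so that those counts are descriptions. Leaving out 1 mouse gave 1 to 2 members called in old + AP against young mice. Signs that turned belonged to uncalled values. Against young mice without mice 8 and 24, C1qa in old + AP mice was -0.028 and C1qc -0.141, and over single mice left out they ranged from -0.028 to 0.24 and from -0.141 to 0.188. Between old + AP and old + vehicle mice, C1qb was -0.004 with the muscle score, -0.142 with the macrophage score, -0.004 with the neutrophil score and -0.062 without mice 8 and 24. C4b was -0.093 and C3 -0.048 with the muscle score, C4b -0.006 and C3 -0.028 with the neutrophil score, and C5ar1 -0.045 with the muscle score. Over single mice left out, this comparison ranged from -0.33 to 0.047 for C1qa, from -0.241 to 0.212 for C1qb, from -0.393 to 0.074 for C1qc, from -0.083 to 0.041 for Cfb and from -0.015 to 0.314 for C3ar1. The cause of these changes was not tested. No paired analysis was possible because the labels hold nothing that pairs mice across groups. Counts were high for every member, so that the number of mice and the spread between them, not depth, set the width of the intervals.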

Other observations

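Genes that inflammatory signals are known to induce, some of them alongside complement, were read from the same fits. Of 9 interferon-gamma-inducible genes (Irf1, Gbp2 and 7 more), none was called in old + vehicle or old + AP against young mice, with median log2 fold changes of 0.19 and 0.16. Of 6 acute phase and NF-kB genes, Saa3, which encodes a serum amyloid A protein, was higher in both old groups (2.19, SE 0.69, adjusted p = 0.0218, and 2.75, SE 0.69, adjusted p = 0.00501, by edgeR), and Il6 was higher in old + vehicle mice (1.52, SE 0.49, adjusted p = 0.023) but was not called in old + AP mice (0.70, adjusted p = 0.308). Both were chosen for mention after their values were seen. No gene of the marker lists and none of these genes was called in old + AP against old + vehicle mice.

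Markers of the other cell types differed between old and young mice as follows. Osteoblast markers (Bglap, Bglap2, Ibsp and 3 more) were called lower for 3 of 6 in old + vehicle and 5 of 6 in old + AP against young mice. Marrow stromal markers (Cxcl12, Lepr, Pdgfra and 3 more) were called lower for 5 of 6 and 4 of 6, with summed levels of 2897 to 4467 CPM in young, 1383 to 2870.2 in old + vehicle and 1345 to 3035 in old + AP mice. Osteocyte markers (Dmp1, Mepe, Sost and 3 more) were called higher for 2 and lower for 1 of 6 in each. T cell markers (Cd3e, Cd3d, Cd3g and 2 more) were called for 0 of 5 in old + vehicle mice and higher for 3 of 5 in old + AP mice. Their summed levels had medians of 37.3, 40.6 and 42.0 CPM in young, old + vehicle and old + AP mice, with highest values of 49.1, 78.7 and 321 CPM, so that at least 1 old + AP mouse lay far above the median of its group; the calls were not rerun without it. Erythroid markers (Hba-a1, Hbb-bs and 3 more) were lower for 2 of 5 and 1 of 5. Adipocyte markers (Adipoq, Plin1, Cidec and 2 more) held 1 higher and 1 lower of 5, then 1 lower of 5. Skeletal muscle markers (Acta1, Ckm, Myh1 and 3 more) held 1 higher of 6, then 0. Osteoclast (Acp5, Ctsk, Calcr and 3 more), endothelial (Pecam1, Cdh5, Emcn and 2 more) and plasma cell markers (Jchain, Sdc1, Mzb1 and 1 more) held none called in either comparison, and the 1 hepatocyte marker tested, Serpina1a, was not called. Their part in the complement levels was not tested beyond the muscle, macrophage and neutrophil scores.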
